A study of Mus musculus with 12 samples.

Results

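The Clec genes name proteins that carry a C-type lectin domain or a fold like it. They were taken as every gene of the deposited table whose symbol starts with Clec and a digit, which gave 31 of 18050 genes. The study sequenced mRNA of the left ventricle in wild type mice, taken on day 7 after sham surgery or MI, read here as myocardial infarction. There were 6 sham and 6 MI libraries, and the labels give neither strain nor age. Replicates 1 and 2 of each group form one set and replicates 3 to 6 another, since the submitters' processing notes differ between them. The labels do not say that libraries came from separate animals, so p-values measure only the spread between libraries, which may be technical.

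Myeloid Clec receptors sit on monocytes, macrophages, neutrophils and dendritic cells, where they bind microbial sugars and material from dying cells. Activating members signal through the kinase Syk and the adaptor Card9, either directly or through the partner chains Fcer1g and Tyrobp, while inhibitory members recruit phosphatases. Other members have different roles: Clec1b is the platelet receptor for podoplanin, Clec14a lies on endothelium, Clec2 proteins are ligands of natural killer receptors, and Clec3b and Clec11a are secreted by stromal cells. Clec16a shares the symbol only and works in endosomes and mitophagy.

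The myeloid receptors included 9 activating or related members (Clec4a1, Clec4a3, Clec4b1, Clec4d, Clec4e, Clec4n, Clec5a, Clec7a and Clec9a) and 4 inhibitory ones (Clec4a2, Clec4a4, Clec12a and Clec12b). The others were 3 endocytic receptors, 3 platelet or endothelial receptors, 7 ligands of natural killer receptors, 4 secreted stromal proteins and Clec16a. By position, 23 of the 31 genes lie on chromosome 6. On GRCm38, Clec4n, Clec4d and Clec4e lie side by side there, with Clec4n at chr6:123229843-123247021 (plus strand), Clec4d at chr6:123262111-123275265 (plus strand) and Clec4e at chr6:123281789-123289870 (minus strand). Clec7a is at chr6:129461591-129472779 (minus strand). The 2 secreted members that the results turn on lie elsewhere: Clec11a is at chr7:44302687-44306902 (minus strand) and Clec3b at chr9:123150946-123157432 (plus strand).

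The 250 bases before the annotated start are shown for 3 activating receptors and for Clec11a, because their RNA was higher in MI libraries of both sets while they belong to different roles. They come from RefSeq on GRCm38.p6, are written along the gene's own strand, and hold no annotated exon. Capitals mark GAGGAAG, a core bound by the myeloid factor PU.1 and other ETS factors, on either strand. The windows are Clec4d at chr6:123261857-123262106 (plus strand), Clec4e at chr6:123289872-123290121 (minus strand), Clec7a at chr6:129472780-129473029 (minus strand) and Clec11a at chr7:44306960-44307209 (minus strand).
Clec4d: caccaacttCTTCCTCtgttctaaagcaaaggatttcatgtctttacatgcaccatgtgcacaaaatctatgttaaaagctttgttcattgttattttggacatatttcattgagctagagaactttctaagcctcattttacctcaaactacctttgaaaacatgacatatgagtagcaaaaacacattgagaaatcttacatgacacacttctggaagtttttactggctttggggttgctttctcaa
Clec4e: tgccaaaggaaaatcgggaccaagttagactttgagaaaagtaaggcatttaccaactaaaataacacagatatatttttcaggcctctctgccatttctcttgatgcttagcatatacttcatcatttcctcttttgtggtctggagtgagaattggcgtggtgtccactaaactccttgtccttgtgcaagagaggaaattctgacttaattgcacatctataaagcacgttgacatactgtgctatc
Clec7a: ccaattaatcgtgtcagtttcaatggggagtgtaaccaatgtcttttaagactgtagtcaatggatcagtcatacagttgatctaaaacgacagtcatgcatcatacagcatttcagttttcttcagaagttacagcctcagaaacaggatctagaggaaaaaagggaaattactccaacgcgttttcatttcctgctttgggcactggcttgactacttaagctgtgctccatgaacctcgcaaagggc
Clec11a: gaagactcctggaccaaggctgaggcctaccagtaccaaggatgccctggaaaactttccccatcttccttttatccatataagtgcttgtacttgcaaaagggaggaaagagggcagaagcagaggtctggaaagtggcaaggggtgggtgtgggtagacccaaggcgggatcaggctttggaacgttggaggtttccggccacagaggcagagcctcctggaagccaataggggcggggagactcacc
In the Clec4d window the match begins 235 bases before the start and is read on the opposite strand; the other 3 windows hold none. RefSeq windows were matched for 24 of the 31 members. GAGGAAG stood in 6 of these 24 (Clec12a, Clec16a, Clec18a, Clec4a1, Clec4d and Clec5a), against 10.6% of all 32851 windows of that length. Among these 6, annotated exons cover all 250 bases of the Clec12a window, which lies inside the gene, 154 of the Clec18a window and 16 of the Clec5a window. The AP-1 letters TGANTCA were found in 5 members against 6.75% of all windows, the interferon-regulatory factor motif in 2 against 2.98%, the NF-kB motif in 1 against 1.41%, and TATAAA in 7 against 12.4%. Both strands were searched, and a match describes letters only.

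Of the 31 genes, 21 had enough counts to be tested over the 12 libraries. A gene was said to rise or fall in MI when its adjusted p was under 0.05 both in a test of all 12 libraries and in a test with replicates 3 to 6 of each group summed and counted once. By this rule 12 of 21 rose, against 28.1% of all genes tested, and 3 of 21 fell, against 29.8%. The 12 were Clec4a1, Clec4a2, Clec4a3, Clec4d, Clec4e, Clec4n, Clec5a, Clec7a, Clec12a, Clec2g, Clec2i and Clec11a, and the 3 were Clec1a, Clec3b and Clec16a. The 12-library test by itself had 13 higher, with Clec14a added (all genes 37.9%), and 3 lower (38.0%). Within replicates 1 and 2 alone, 13 members were higher (all genes 34.1%) and 4 lower (32.9%). Within replicates 3 to 6 alone, 13 were higher (42.3%) and 5 lower (39.6%). Every MI library lay above every sham library for 10 members (21.4% of all genes) and below for 2 (21.4%). An exact two-sided permutation test of CPM gave p = 0.00216 for each of these 12, the smallest that 6 against 6 libraries can give. Full separation fixes this value in advance, so it adds nothing to the separation itself. The test also counts replicates 3 to 6 as separate units, which they may not be. The median log2 fold change over the 21 members was 1.69, beside 0.01 over all genes tested.

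**Figure D1:**
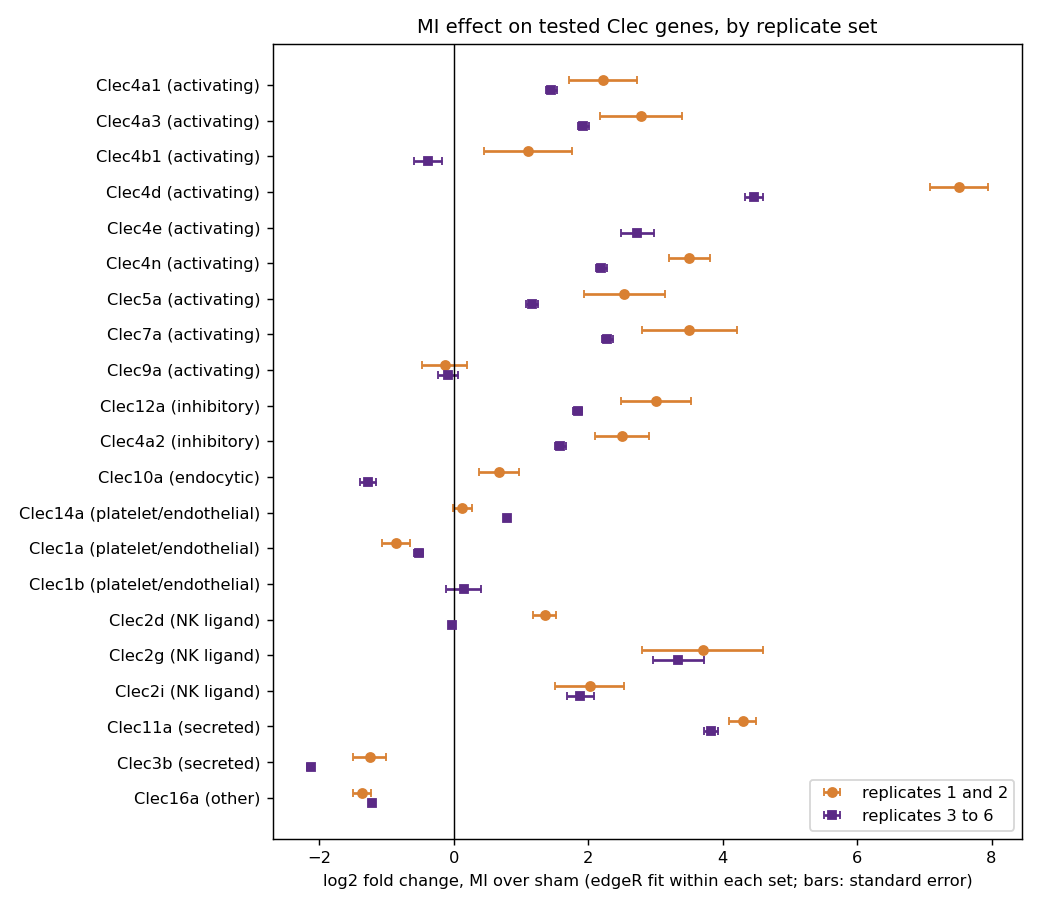
The log2 fold change of MI over sham (x axis) is plotted for each tested Clec gene (rows, with role), fitted within replicates 1 and 2 (circles) and within replicates 3 to 6 (squares), with bars for the standard error. Clec4d, Clec4n, Clec7a, Clec12a and Clec11a lie right of 0 in both sets, Clec3b, Clec1a and Clec16a lie left of 0 in both, and Clec10a lies on opposite sides; Clec4e has no point for replicates 1 and 2, where sham counts were 0, and Clec1b was not tested there.

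Most of the activating or related myeloid receptors were higher after MI. Of the 9 members, all tested, 7 rose (all genes 28.1%) and none fell (29.8%). The 7 include Clec4a1 and Clec4a3, which are relatives of the inhibitory Clec4a2. Over 12 libraries the median log2 change of the 9 was 2.17, the value of Clec4a3. The median was 2.79 within replicates 1 and 2 and 1.93 within replicates 3 to 6, where the medians of all genes were 0.05 and 0.03. Marker genes of macrophages and monocytes moved with them: 11 of 12 rose, with a median of 2.54. Their summed level went from between 463 and 468 CPM in sham to 3368 and 5129 CPM in MI in replicates 1 and 2, and from between 782 and 822 CPM to between 3300 and 3427 CPM in replicates 3 to 6. CPM, the depth-scaled read count, uses the TMM-scaled library size here. Whether more cells or more RNA per cell gave these values cannot be told apart in bulk tissue.

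Clec4d, also called MCL or Dectin-3, is an activating receptor that associates with Clec4e. Its level in sham was 0.152 and 0.148 CPM in replicates 1 and 2, and 1.29, 0.870, 1.67 and 0.724 CPM in replicates 3 to 6. In MI it was 22.7 and 35.7 CPM in replicates 1 and 2, and 23.9, 24.2, 24.8 and 25.6 CPM in replicates 3 to 6. All MI libraries stood above all sham libraries by a wide gap, and the sham level differed between sets. Clec4d rose by 5.16 on the log2 scale (SE 0.35, adjusted p = 7.99e-08, and 0.00162 with replicates 3 to 6 counted once). In raw counts, replicates 1 and 2 held 4 reads in sham against 1243 in MI, a ratio of 195 after scaling (95% interval of counting error 76.0 to 717). Replicates 3 to 6 held 38 against 1618, a ratio of 21.5 (15.6 to 30.5).

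Clec4e, or Mincle, binds mycobacterial glycolipid and the nuclear protein Sap130 released by dying cells. No read was counted in sham replicates 1 and 2, and sham replicates 3 to 6 had 0.702, 0.870, 0.717 and 0.362 CPM. The MI libraries had 7.03 and 16.2 CPM in replicates 1 and 2, and 4.05, 4.37, 3.83 and 4.97 CPM in replicates 3 to 6. The groups did not overlap, and MI replicate 2 was the highest library. With a floor of 3 counts over the 2 sham libraries and the 497 MI reads taken as exact, Clec4e was at least 104-fold higher in MI in replicates 1 and 2. In replicates 3 to 6 the ratio was 6.51 (counting interval 4.21 to 10.6, 22 against 283 reads). Over 12 libraries Clec4e rose by 4.01 on the log2 scale (SE 0.65, adjusted p = 1.15e-04, and 0.0146 counted once). Its ligand gene Sap130 was not called (log2 fold change -0.01, SE 0.08).

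Clec7a, or Dectin-1, recognises beta-glucan and signals through Syk by its own tail. It measured 4.03 and 3.26 CPM in sham replicates 1 and 2, and 8.43, 7.46, 6.68 and 8.57 CPM in sham replicates 3 to 6. In MI it measured 16.6 and 67.4 CPM in replicates 1 and 2, and 37.3, 32.7, 38.8 and 38.4 CPM in replicates 3 to 6. The groups did not overlap, but the first MI pair spanned a 4.07-fold range. Clec7a rose by 2.66 on the log2 scale (SE 0.33, adjusted p = 1.43e-05, and 0.00797 counted once).

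Clec4n, or Dectin-2, binds mannose-rich glycans and signals through Fcer1g. Sham libraries had 2.82 and 3.19 CPM in replicates 1 and 2 and between 6.59 and 9.44 CPM in replicates 3 to 6. MI libraries had 26.0 and 43.2 CPM in replicates 1 and 2 and between 32.9 and 36.5 CPM in replicates 3 to 6. There was no overlap. Its log2 fold change was 2.58 (SE 0.23, adjusted p = 7.33e-07, and 0.00211 counted once).

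Clec5a, or MDL-1, signals through Tyrobp (DAP12). Its sham level was 3.05 and 2.37 CPM in replicates 1 and 2 and between 7.48 and 10.1 CPM in replicates 3 to 6. Its MI level was 7.41 and 24.4 CPM in replicates 1 and 2 and between 17.5 and 20.4 CPM in replicates 3 to 6. MI replicate 1 lay below every sham library of replicates 3 to 6, so the groups overlapped over 12 libraries though not within either set. Clec5a rose by 1.56 on the log2 scale (SE 0.31, adjusted p = 5.61e-04, and 0.0236 counted once).

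Clec4a1 and Clec4a3 are relatives of the dendritic cell immunoreceptor DCIR. Clec4a1 had 5.63 and 8.15 CPM in sham replicates 1 and 2 and between 7.83 and 11.6 CPM in sham replicates 3 to 6, against 17.2 and 47.8 CPM and between 24.4 and 27.3 CPM in the matching MI libraries. Clec4a3 had 2.82 and 3.11 CPM and between 7.02 and 7.60 CPM in sham, against 9.53 and 31.9 CPM and between 25.2 and 29.5 CPM in MI. Neither gene overlapped between groups. The log2 fold changes were 1.69 for Clec4a1 (SE 0.25, adjusted p = 4.83e-05) and 2.17 for Clec4a3 (SE 0.27, adjusted p = 1.22e-05). The calls of Clec4e, Clec5a and Clec4a1 rested on both sham libraries of the first set. Without sham replicate 1 their adjusted p counted once was 0.056, 0.0976 and 0.0586, and without sham replicate 2 it was 0.0515, 0.0954 and 0.0511.

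Clec9a and Clec4b1 are the 2 members of the activating or related class that were not called. Clec9a, or DNGR-1, marks the dendritic cells that take up dead cells and binds their exposed actin. It measured 2.28 and 1.85 CPM in sham and 2.02 and 1.80 CPM in MI in replicates 1 and 2, and between 4.34 and 4.90 CPM against between 3.65 and 4.67 CPM in replicates 3 to 6. The CPM ranges overlapped in both sets, and the fitted log2 change was -0.13 (SE 0.12, adjusted p = 0.352). Scaled by library size alone it was 0.28 (adjusted p = 0.0397, and 0.348 counted once). In the authors' TPM, scaled by length and depth, sham had 0.83 and 1.12 and MI 1.38 and 1.39 in replicates 1 and 2. In replicates 3 to 6 sham had 1.79 to 2.04 TPM and MI 2.44 to 2.98 TPM. These TPM ranges did not overlap within either set. Xcr1, a receptor of the same dendritic cells, was also not called (-0.25), while 5 of 8 dendritic markers rose (all genes 28.1%). Clec4b1, or DCAR, pairs with Fcer1g and had a log2 fold change of -0.01 (SE 0.35), positive under library size alone (0.40). Its values were 0.582 and 0.485 CPM in sham and 0.644 and 1.83 CPM in MI in replicates 1 and 2, and between 2.36 and 3.68 CPM against between 1.69 and 2.58 CPM in replicates 3 to 6.

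**Figure D2:**
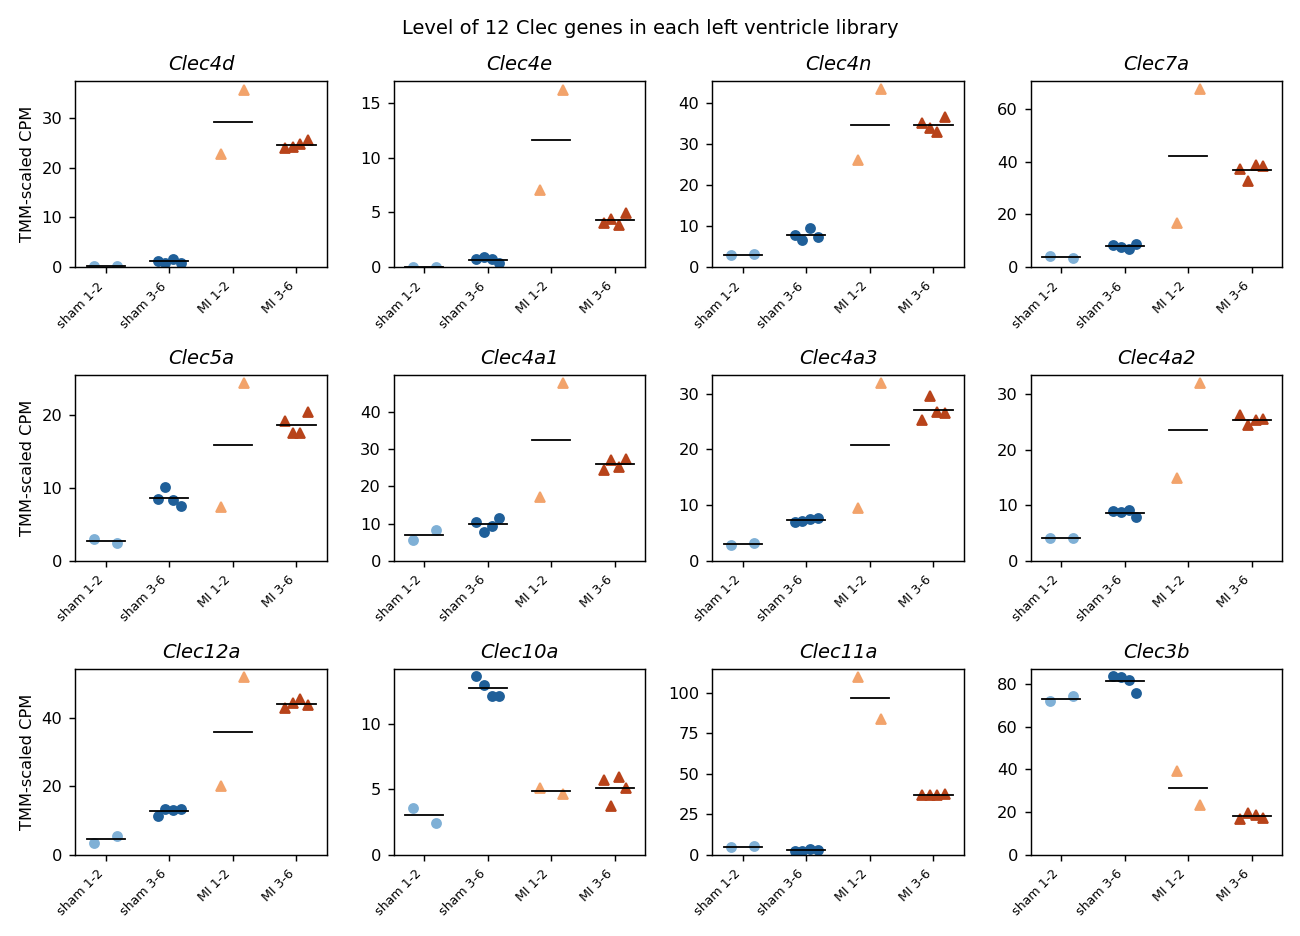
TMM-scaled CPM (y axis, linear from 0) of 12 Clec genes in each library, with sham libraries as circles, MI libraries as triangles and a line at the mean of each group within its replicate set. The 2 MI libraries of replicates 1 and 2 lie far apart for Clec7a (16.6 and 67.4 CPM), while MI replicates 3 to 6 lie between 32.7 and 38.8 CPM.

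Of the 4 inhibitory receptors, 2 were tested, and both rose (all genes 28.1%). Clec12a, or MICL, carries an inhibitory motif and binds uric acid crystals. It had 3.35 and 5.49 CPM in sham replicates 1 and 2 and between 11.4 and 13.3 CPM in sham replicates 3 to 6, against 20.0 and 52.0 CPM and between 42.9 and 45.6 CPM in MI. Clec12a rose by 2.18 on the log2 scale (SE 0.26, adjusted p = 1.02e-05, and 0.00659 counted once), and the groups did not overlap. Clec4a2 is the mouse DCIR. It had 4.04 and 4.16 CPM and between 7.81 and 9.07 CPM in sham, against 14.9 and 32.0 CPM and between 24.3 and 26.1 CPM in MI. It rose by 1.86 on the log2 scale (SE 0.21, adjusted p = 5.11e-06, and 0.005 counted once), again with no overlap.

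The other 2 inhibitory members had too few reads for the 12-library test. Clec12b, a Clec12a relative that recruits phosphatases, was between 2.24 and 3.36 CPM in sham replicates 3 to 6 and between 0.189 and 0.256 CPM in MI replicates 3 to 6, and was lower in that set's own test. Sham replicates 1 and 2 held 1 read of it and the MI pair 5, so replicates 1 and 2 do not show this difference. Clec4a4, or DCIR2, reached at most 0.364 CPM in any library. It shares 12.7% of its 75-base words with Clec4a2, so its few reads are uncertain. Together, 9 of the 11 tested myeloid receptors rose (all genes 28.1%) and none fell (29.8%).

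Genes of signalling downstream of the myeloid receptors, activating and inhibitory, mostly rose too. From a list of 24, 23 were tested, 22 rose (all genes 28.1%) and 1 fell (29.8%). The median of their log2 changes was 1.72. The 3 with the smallest adjusted p were Prkcd, the kinase that activates Card9 (1.82, SE 0.09, adjusted p = 7.49e-09), Syk (1.14, SE 0.07, adjusted p = 2.19e-08) and the kinase Btk (2.05, SE 0.16, adjusted p = 2.04e-07). The exception was Ptpn11, the widely expressed phosphatase SHP-2, at -0.67 (SE 0.14, adjusted p = 0.00107). The phosphatase genes Ptpn6 (2.09, SE 0.23) and Inpp5d (1.93, SE 0.15) rose. Fcer1g was at 2.15 (SE 0.26), Tyrobp at 2.33 (SE 0.31) and Card9 at 1.56 (SE 0.23), all of which rose. Most genes of this list are expressed in leukocytes in general, and their part in the receptors' change was not tested.

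Of the 3 endocytic receptors, 1 was tested, and it was not called. Clec10a, or MGL1, is a galactose-type lectin of macrophages and dendritic cells. It had 3.59 and 2.44 CPM in sham replicates 1 and 2, and between 12.1 and 13.7 CPM in sham replicates 3 to 6. In MI it had 5.10 and 4.62 CPM in replicates 1 and 2, and 5.67, 3.69, 5.90 and 5.07 CPM in replicates 3 to 6. The MI libraries of both sets lie between 3.69 and 5.90 CPM, while the mean sham level was 4.22-fold higher in the second set. MI lay above sham in replicates 1 and 2 (log2 fold change 0.67, SE 0.30, adjusted p = 0.0924) and below it in replicates 3 to 6 (-1.27, SE 0.12, adjusted p = 1.94e-11).

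The change of Clec10a differed between sets by -2.01 on the log2 scale (SE 0.27, adjusted p of the interaction 3.40e-05, and 0.0449 counted once). This difference was called for 3 of 21 members, all lower in replicates 3 to 6 (3.86% of all genes, 10.5% in either direction), and the others were Clec4d (-3.10, SE 0.67, adjusted p = 0.0015 and 0.0482) and Clec2d (-1.44, SE 0.15, adjusted p = 2e-06 and 0.0334). None of the 3 passed without sham replicate 1, with adjusted p counted once of 0.122, 0.175 and 0.136. Without sham replicate 2 they were 0.147, 0.176 and 0.12. Clec4d also missed the threshold without sham replicate 3 (0.0549) or 5 (0.0647), and Clec10a without MI replicate 4 (0.0521). With limma on log2(FPKM + 1) the values were 0.106, 0.37 and 0.11. Markers of resident macrophages had a like pattern of sham levels: they summed to 172 and 200 CPM in sham replicates 1 and 2 and to between 492 and 516 CPM in sham replicates 3 to 6, against 116 to 159 CPM and 217 to 234 CPM in MI. Of these 6 markers 2 fell (Cd163 and F13a1), near the 29.8% of all genes, and none rose (28.1%). Among the others, Lyve1 was at -0.60 and -2.65 on the log2 scale in the 2 sets. Mrc1 was at 0.19 and 0.03, while Timd4 (1.11 and -2.04) and Folr2 (0.17 and -0.47) changed sign between sets. Their part in the Clec10a values was not tested.

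Mgl2, the neighbouring paralogue of Clec10a, fell in both sets, by 3.12 and 3.04 on the log2 scale (3.09 over 12 libraries, SE 0.09, adjusted p = 1.16e-10). Clec10a shares 4.44% of its 75-base words with Mgl2. Clec4f, the Kupffer cell receptor of liver, had 2 reads in sham replicates 1 and 2, 22 in sham replicates 3 to 6, and 0 in all 6 MI libraries. With MI at the floor of 3 counts over the group and the 22 sham reads taken as exact, it was at least 14.5-fold lower in MI in replicates 3 to 6. The counting error of the 22 reads is not covered. Clec4g, a receptor of liver sinusoidal endothelium, stayed under 0.995 CPM throughout.

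The platelet and endothelial members differed from one another. Clec14a, an endothelial protein, had 43.0 and 53.6 CPM in sham and 56.1 and 51.1 CPM in MI in replicates 1 and 2, which overlap. In replicates 3 to 6 it had between 44.5 and 50.9 CPM in sham and between 76.5 and 82.2 CPM in MI, which do not. Over 12 libraries its log2 change was 0.54 (SE 0.10, adjusted p = 4.12e-04) but its adjusted p was 0.147 counted once, so it was not called. Its matrix ligand gene Mmrn2 was at 0.30 (SE 0.19) and not called. Endothelial markers summed to 1093 and 1270 CPM in sham and 719 and 684 CPM in MI in replicates 1 and 2, and to between 1012 and 1031 CPM against between 1152 and 1181 CPM in replicates 3 to 6. Their part in the Clec14a values was not tested.

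Clec1a, a receptor of endothelium and some myeloid cells, fell by 0.65 on the log2 scale (SE 0.08, adjusted p = 9.34e-06, and 0.00944 counted once). Sham had 8.45 and 9.71 CPM and MI 4.90 and 5.22 CPM in replicates 1 and 2. In replicates 3 to 6 sham had between 23.4 and 27.2 CPM and MI between 15.6 and 18.3 CPM. The groups did not overlap within either set, but MI of the second set lay above sham of the first. Without the set as a covariate the adjusted p was 0.22, and with library size alone the value was -0.24 (adjusted p counted once 0.132). Clec1b, the podoplanin receptor of platelets, was at or under 2.11 CPM and was not called (0.35, SE 0.28). Scaled by library size alone, Clec1b was at 0.76 (adjusted p = 0.0287, and 0.1 counted once). It had 0.304 and 0.296 CPM in sham and 0.433 and 0.925 CPM in MI in replicates 1 and 2, and between 1.09 and 2.11 CPM against between 1.21 and 2.09 CPM in replicates 3 to 6. Podoplanin itself (Pdpn) rose by 1.81 (SE 0.24, adjusted p = 2.28e-05).

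Among the 7 ligands of natural killer receptors, 3 were tested, 2 rose (all genes 28.1%) and none fell (29.8%). Clec2g was near absent in sham, with 0.152 and 0 CPM in replicates 1 and 2 and between 0.126 and 0.355 CPM in replicates 3 to 6. In MI it reached 0.823 and 1.36 CPM in replicates 1 and 2 and between 1.84 and 2.36 CPM in replicates 3 to 6. Its log2 fold change was 3.41 (SE 0.35, adjusted p = 2.48e-06, and 0.00674 counted once), resting on 2 sham reads against 46 MI reads in the first set and 7 against 142 in the second. Clec2i, or Clr-g, had 0.381 and 0.817 CPM and between 0.746 and 2.02 CPM in sham, against 1.91 and 3.04 CPM and between 4.72 and 6.58 CPM in MI. It rose by 1.90 (SE 0.24, adjusted p = 1.48e-05, and 0.00861 counted once), with overlap over 12 libraries only because MI replicate 1 lay below 1 sham library of the second set. Clec2g and Clec2i did not pass a test of a difference between sets (adjusted p = 0.735 and 0.769).

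Clec2d, or Clr-b, is a ligand that keeps natural killer cells in check through Klrb1b. It had 15.8 and 19.2 CPM in sham and 50.6 and 40.4 CPM in MI in replicates 1 and 2. In replicates 3 to 6 it had 90.1, 77.0, 83.3 and 88.1 CPM in sham and 77.0, 86.4, 77.0 and 82.9 CPM in MI. The first set showed a rise (log2 fold change 1.36, SE 0.17, adjusted p = 9.62e-04), and the second a value near 0 (-0.02, SE 0.05). In the authors' TPM the second set had 83.3 to 97.0 in sham and 130 to 145 in MI, with no overlap. The value near 0 thus holds for TMM-scaled counts and not for TPM. The mean sham CPM was 4.83-fold higher in the second set, a ratio above 4 being found for 2.72% of all genes. Over 12 libraries Clec2d was not called (0.39, SE 0.21, adjusted p = 0.114), but it passed with library size alone (0.80, adjusted p = 0.00478). Klrb1b rose by 1.92 (SE 0.32, adjusted p = 1.42e-04). Markers of natural killer cells summed to between 1.09 and 3.28 CPM in sham and between 8.04 and 25.2 CPM in MI. Of these markers, 4 of 4 tested rose (all genes 28.1%). The other 4 ligands had few reads: Clec2e, Clec2f, Clec2h and Clec2l stayed at or under 1.29 CPM.

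The 2 secreted stromal proteins with enough reads moved in opposite directions. Clec11a, or osteolectin, is a growth factor for skeletal stromal cells that binds the integrin of Itga11 and Itgb1. It had 4.57 and 5.12 CPM in sham replicates 1 and 2, and 2.46, 2.11, 3.47 and 2.66 CPM in sham replicates 3 to 6. In MI it had 109.5 and 83.5 CPM in replicates 1 and 2, and 36.9, 37.1, 36.6 and 37.3 CPM in replicates 3 to 6. The groups were far apart in both sets, with ratios of 19.9 (counting interval 16.7 to 23.9) and 13.8 (11.2 to 17.3). Clec11a rose by 4.01 on the log2 scale (SE 0.13, adjusted p = 1.80e-10, and 5.15e-04 counted once), the smallest adjusted p of the 21 members over 12 libraries.

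Clec3b, or tetranectin, is a plasminogen-binding protein of extracellular matrix and plasma. It had 71.9 and 74.3 CPM in sham replicates 1 and 2, and 83.8, 83.2, 81.9 and 75.8 CPM in sham replicates 3 to 6. In MI it had 39.2 and 23.2 CPM in replicates 1 and 2, and 16.6, 19.6, 18.5 and 17.1 CPM in replicates 3 to 6. Every MI library lay below every sham library. Clec3b fell by 1.85 on the log2 scale (SE 0.17, adjusted p = 1.10e-06, and 0.00602 counted once), and the MI level was 0.425 times sham in the first set (0.396 to 0.456) and 0.221 times in the second (0.206 to 0.237). Both integrin genes of the Clec11a receptor rose, Itga11 by 3.25 (SE 0.16, adjusted p = 4.27e-09) and Itgb1 by 0.78 (SE 0.09, adjusted p = 5.56e-06). Of 7 tested partners of Clec proteins, 4 rose (all genes 28.1%) and none fell (29.8%).

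Fibroblast markers moved with Clec11a and against Clec3b, and 6 of 7 rose (all genes 28.1%). Their sum went from between 2305 and 2553 CPM to 49110 and 36660 CPM in replicates 1 and 2. In replicates 3 to 6 it went from between 2985 and 3132 CPM to between 14050 and 14160 CPM. Cardiomyocyte markers fell, 6 of 6 (all genes 29.8%). The share of either in the stromal members' values was not tested. Clec18a had at most 2.30 CPM and lay lower in every MI library than in every sham library, with 22 against 11 reads and 53 against 10. It was too low for the 12-library test. It passed within replicates 1 and 2 (log2 fold change -1.66, SE 0.54, adjusted p = 0.0361) and with replicates 3 to 6 counted once (adjusted p = 0.015), where 4 of 23 members and 29.5% of all genes were lower. Counted once, its adjusted p was 0.0512 without sham replicate 1 and 0.0554 without MI replicate 2. Clec3a, a cartilage protein, stayed at or under 0.603 CPM.

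Clec16a fell by 1.28 on the log2 scale (SE 0.06, adjusted p = 1.95e-09, and 0.00127 counted once). It had 147.7 and 139.9 CPM in sham replicates 1 and 2 and between 115.5 and 121.0 CPM in sham replicates 3 to 6. MI libraries had 61.9 and 51.9 CPM in replicates 1 and 2 and between 47.8 and 52.8 CPM in replicates 3 to 6. The groups did not overlap, and the change differed between sets by 0.08 (SE 0.10, adjusted p = 0.48). Rnf41, its ubiquitin ligase partner Nrdp1, was not called (0.05, SE 0.10).

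Levels can be compared between genes in TPM, the transcript abundance that the authors scaled by length and depth. Summed over the 31 genes, sham held 227 ± 2.01 TPM (SD, n = 2) in the first set and 345 ± 7.66 (n = 4) in the second. MI held 722 ± 166 (n = 2) and 634 ± 12.2 (n = 4). In sham the myeloid receptors made up 12.6% ± 0.67 and 18.9% ± 0.68 of this sum in the 2 sets, and in MI 49.5% ± 19.3 and 53.5% ± 0.76. The share of the secreted stromal members went from 50.9% ± 0.79 and 32.1% ± 1.21 to 27.8% ± 12.4 and 11.9% ± 0.36. Their summed level did not follow the share in the first set, where it was 115.7 ± 0.77 TPM in sham and 190.2 ± 43.2 TPM in MI. In the second set it was 110.4 ± 4.72 TPM in sham and 75.5 ± 2.87 TPM in MI. MI replicate 1 alone had more stromal (36.5%) than myeloid (35.8%) Clec RNA among the MI libraries.

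Clec3b was the most abundant member in sham, at 111 to 112 TPM in the first set and 101 to 111 TPM in the second. Next in the first set came Clec16a (35.6 to 38.7 TPM), Clec2d (20.0 to 23.2 TPM) and Clec14a (14.1 to 16.8 TPM), whose ranges do not overlap. In sham of the second set Clec2d (83.3 to 97.0 TPM) stood between Clec3b and Clec16a (38.0 to 40.0 TPM). In MI the order changed and differed between sets. Clec11a led in replicates 1 and 2 (102 to 128 TPM), followed by Clec2d (80.8 to 96.6 TPM) and Clec3b (57.4 to 92.6 TPM), which overlap. In MI replicates 3 to 6 Clec2d led (130 to 145 TPM), then Clec12a (61.4 to 65.4 TPM) and Clec4n (55.3 to 60.9 TPM), none of which overlap. Clec11a and Clec3b were at 38.0 ± 0.20 and 37.4 ± 2.78 TPM there. TPM and CPM did not always move alike between sets. Mean Clec12a in MI was 36.02 and 44.15 CPM in the 2 sets, but 38.15 and 62.94 TPM. Mean Clec4n in MI was 34.63 and 34.55 CPM, but 68.0 and 58.19 TPM. Mean Clec11a in MI differed between sets in both measures, at 96.52 and 36.95 CPM and at 114.9 and 38.01 TPM. Why the order differed between sets was not tested.

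**Figure D3:**
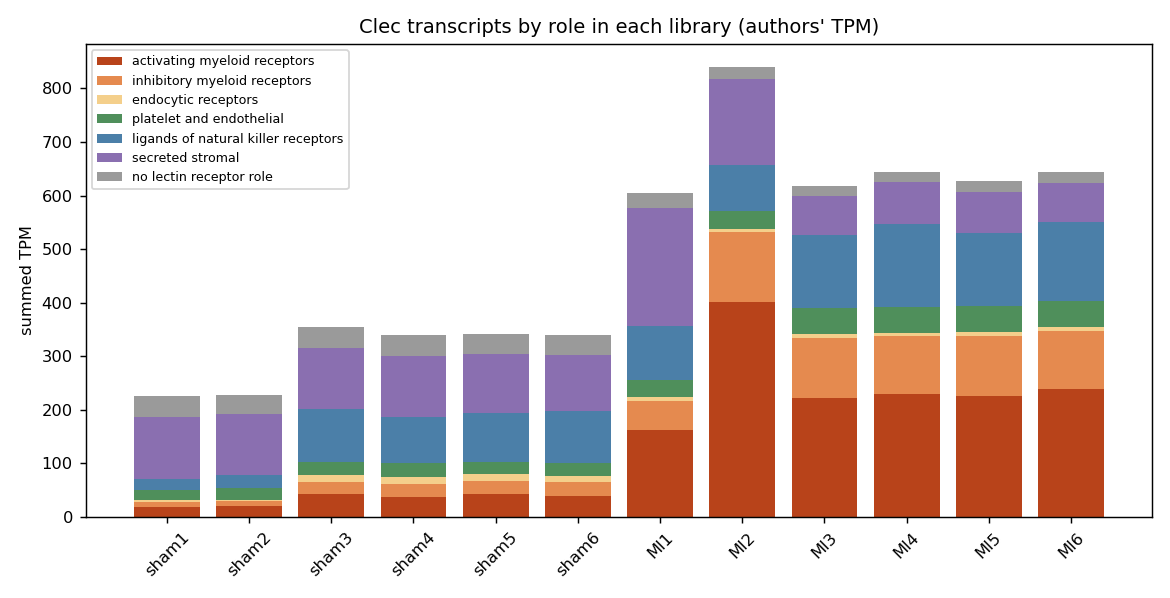
Summed TPM of the Clec genes in each library (y axis, linear from 0), stacked by role. The secreted stromal part leads in sham replicates 1 and 2 (50.9% of the sum) and the myeloid parts together lead in MI replicates 3 to 6 (53.5%).

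Some features of the libraries touch these values. Expected counts summed to 15541334 to 18602226 per library in replicates 1 and 2 and to 9140353 to 14410783 in replicates 3 to 6, and replicates 3 to 6 of a group lay much closer together than replicates 1 and 2. Lung markers summed to 168 to 172 CPM in MI replicates 3 to 6 and to at most 2.79 CPM in the other libraries. In the same 4 libraries 1 haplotype of beta-globin reads, Hbb-bs and Hbb-bt, made up 0.0596% to 0.194% of counts over the beta-globin copies, and 99.9% to 100% in the other 8, so the mouse strain and MI cannot be told apart in that set. In sham, 17 of the 21 tested members had a ratio of second set over first above 1, as had 50.4% of all genes. Clec4e had no sham read in the first set and so no ratio, and it too was higher in the second. Without Clec4e the median ratio of the members was 2.60, against 1.01 over all genes. The part of lung cells, strain or set in the members' values was not tested.

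The 2 MI libraries of the first set differed in the myeloid receptors. Of the 11 tested, 10 were over 1.5-fold higher in MI replicate 2 than in MI replicate 1, and 7.64% of all genes were. The ratio was 4.07 for Clec7a, 3.35 for Clec4a3, 3.29 for Clec5a, 2.60 for Clec12a and 1.57 for Clec4d, with 0.892 for Clec9a. The secreted members had the opposite order, at 0.762 for Clec11a and 0.592 for Clec3b. Summed markers of neutrophils had a ratio of 2.48, dendritic cells 2.29 and macrophages and monocytes 1.52. Fibroblasts had 0.747, resident macrophages 0.732 and cardiomyocytes 0.597. The most abundant markers weigh most in each sum. Col1a1 (0.741) and Col1a2 (0.723) dominate the fibroblast sum, while its other markers lay between 0.8997 (Lum) and 0.9896 (Pdgfra). Lyz2 (1.41) dominates the macrophage and monocyte sum, whose markers ranged from 0.981 (Ly6c2) to 2.57 (Ccr2). Dendritic markers ranged from 0.5765 (Cd209a) to 4.09 (Itgax) and neutrophil markers from 0.692 (Retnlg) to 5.59 (S100a9). With 1 library on each side, this is a description with no test.

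**Figure D4:**
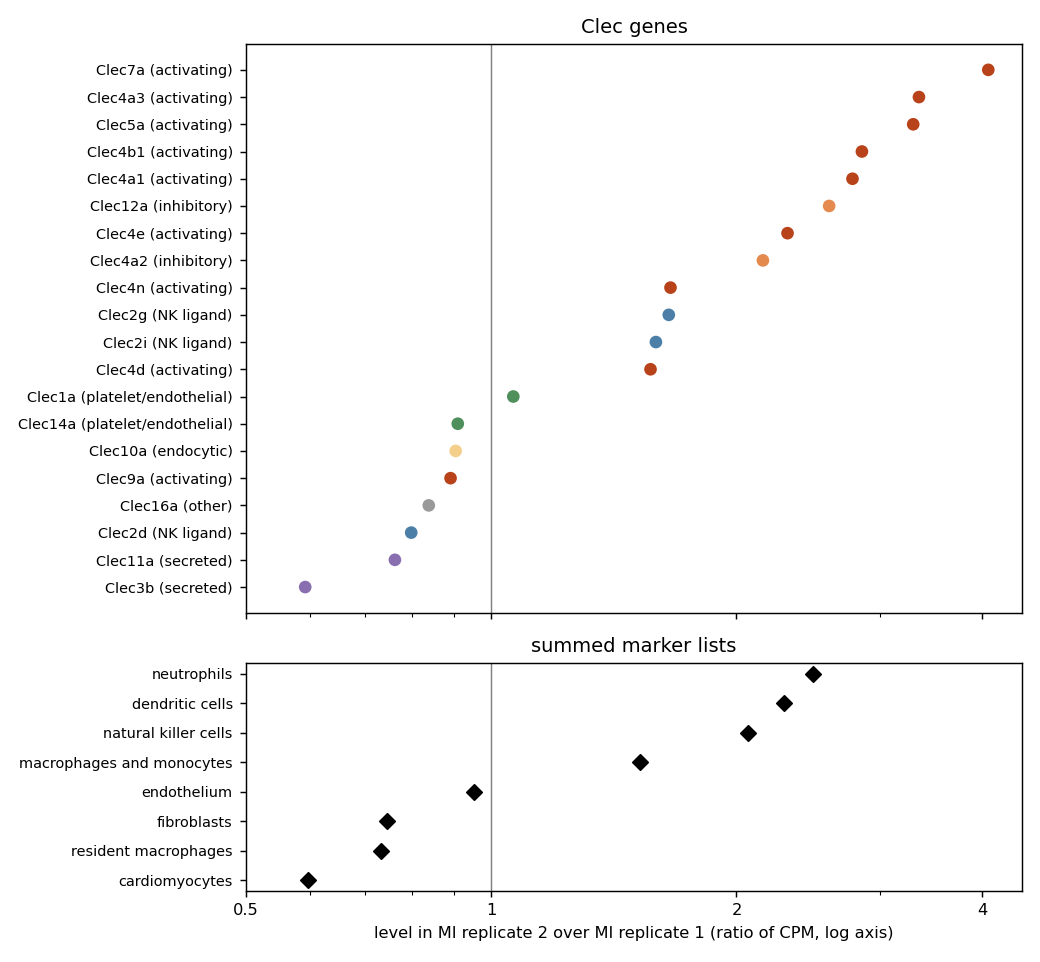
Ratio of CPM in MI replicate 2 over MI replicate 1 (log axis) for tested Clec genes with at least 1 CPM in either library, and for the summed markers of cell types. Clec7a lies at 4.07 and most myeloid receptors lie right of 1, while Clec11a (0.762) and Clec3b (0.592) lie left of 1.

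C-type lectins without a Clec symbol were taken from a list of 43, of which 41 were in the table and 25 were tested. Of these, 16 rose (all genes 28.1%) and 2 fell (29.8%), and the median of their log2 changes was 1.25. The 3 with the smallest adjusted p were the proteoglycan Vcan (2.72, SE 0.06, adjusted p = 1.57e-11), Mgl2, given above, and Mrc2, the collagen receptor of fibroblasts (2.25, SE 0.12, adjusted p = 9.05e-09). The second that fell was Cd209f, a DC-SIGN relative (-2.65, SE 0.34, adjusted p = 1.57e-05).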

How the data were processed

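RNA-seq of 6 sham and 6 MI left ventricle libraries was analysed. Per the labels, mRNA was enriched with oligo(dT). Strandedness is not stated. Per the submitters' processing notes, replicates 3 to 6 used Bowtie2, RSEM and DESeq2 (versions not given in the sources used here) on GRCm38, and those for replicates 1 and 2 name no tool. The authors deposited expected counts, TPM and FPKM for each gene and library.

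Rounded expected counts went into edgeR 4.0.16 in R 4.3.3 (quasi-likelihood test, TMM, filterByExpr, replicate set as covariate), fitted on all genes with Benjamini-Hochberg adjustment. The 425 genes blank in replicates 1 and 2, none a member, were left out. Sets were also tested alone, and their difference as an interaction. TMM-scaled CPM was computed from the counts, while TPM was used as deposited and FPKM only in a limma 3.58.1 alternative. Each standard error is the log2 change divided by the root of its F. Counting intervals and floors (95%) cover counting error only, and floors only that of the group without reads. Alternatives covered scaling, DESeq2 1.42.0, filters, threshold, covariate, replicate block and leaving out each library. The tests were tested on simulated data. Members, lists, tests and roles were chosen with earlier results of these data known. Values per library are given for called members and for uncalled ones that reach 1 CPM in the group with more, and lists name the 3 smallest adjusted p and any member against the majority. The 75-base words came from GENCODE transcripts.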

Additional observations from a re-analysis of the deposited data

Results flagged for a closer look

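In 7 cases 1 MI library stood apart from the other 5 by Dixon's ratio. The usual rate of about 1 in 20 groups assumes libraries of a single kind, so it does not apply here. The MI libraries of the second set lay close together, which favours a flag on a library of the first set. All 7 concern MI replicate 1 or 2, which form the first set, so the ratio cannot tell an outlier from a difference between sets. The share of all genes with such a flag was not tested. MI replicate 2 was the highest for Clec4a1 (47.8 CPM, next 27.3), Clec4d (35.7 CPM, next 25.6) and Clec4e (16.2 CPM, next 7.03). MI replicate 1 was the lowest for Clec4a3 (9.53 CPM, next 25.2) and Clec12a (20.0 CPM, next 42.9), and the highest for Clec3b (39.2 CPM, next 23.2) and Clec16a (61.9 CPM, next 52.8).

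The MI effect differed between replicate sets for 3 members by the interaction test, each lower in replicates 3 to 6: Clec4d by -3.10, Clec10a by -2.01 and Clec2d by -1.44 on the log2 scale.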

How the results depend on the processing

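The count of members that rose by both tests stayed within 1.5 times of 12 under every alternative run. Leaving out low-count filtering gave 9 lower members in the 12-library test and left 1 difference between sets. By both tests it gave 5 lower members, adding Clec18a and Clec4f, while Clec4a4 was added to those that rose. Of all 17576 genes in that setting, 4004 were lower and 3992 higher by both tests. Within replicates 1 and 2, 2 members were lower with library size alone, and leaving out a library gave 2 or 3. The count of differences between sets when 1 library was left out ranged from 0 (sham replicate 1 or 2) to 5 (MI replicate 2) and 11 (MI replicate 1). For the counts in the 12-library test, within 1 set or between sets, the share of all genes under these settings was not computed. These counts are therefore not read as results about the members. None of the 3 differences passed with either limma setting (adjusted p counted once 0.106 to 0.37) or at adjusted p under 0.01. Clec4d also missed 0.05 with library size alone (0.0557). The sign of Clec9a turned with library size alone (0.28) and limma on log2(FPKM + 1) (0.12) or log2(FPKM + 0.1) (0.22). That of Clec4b1 turned with library size alone (0.40), DESeq2 (0.0177), limma (0.19 and 0.35), no filter (0.0267) and without single libraries (-0.297 to 0.136). Calls lost were Clec1a (library size alone, limma, no set covariate), Clec5a and Clec2i (no set covariate), and Clec4a1, Clec4e and Clec5a (adjusted p under 0.01, or without sham replicate 1 or 2); Clec14a and Clec2d were gained with library size alone and limma. The cause was not tested. Library size alone moved the median of all genes to 0.42 and the share of higher calls from 48.5% to 71.7% (limma 70.9% and 70.8%). Replicate numbers did not pair libraries (correlations of -0.0448 to 0.0529), and the replicate block kept the same 15 calls, 12 higher and 3 lower, by both tests and gave 13 higher and 3 lower over 12 libraries. The 10 members too low for the 12-library test reached at most 3.36 CPM in any library; for these, read counts limit the precision.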
